A study of Mus musculus with 3 samples.

Results

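Collagens form the fibres and sheets of the extracellular matrix, and a set of enzymes and chaperones in and outside the cell makes them fit for assembly. In hearts of mouse embryos labelled Lrrc10-/- or Lrrc10+/+, transcripts of these genes were read with 104 array probes of 58 genes, out of 41174 gene probes on each array. The members were taken by name: every probe whose gene symbol was Col followed by a number, the letter a and a number (42 genes), and the probes of 16 enzymes and chaperones (Fkbp10, Serpinh1, P4ha1, P4ha2, P4hb, Plod1, Plod2, Plod3, Lox, Loxl1, Loxl2, Leprel1, Lepre1, Crtap, Pcolce and Bmp1). The names were chosen with one measured value in view: an earlier look at these arrays had selected Fkbp10 on its log2 ratio and p, among the most lowered probes, so its values are given as a description, with no test.

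Each of 3 two-colour Agilent arrays carried RNA of a pool that the labels call 2 Lrrc10-/- hearts, in Cy5, beside RNA of a pool that they call 2 wild-type littermate hearts, in Cy3. All embryos were C57BL/6 and were taken at embryonic day 15.5 from matings of heterozygous mice, so the allele is an inherited one and not bound to a cell type. The arrays are the replicates, numbered 1 to 3 as in the labels, and the dyes were never exchanged, so that genotype and dye cannot be told apart. A label of the wild-type channel also holds an adult time of sacrifice, and the embryonic stage given by the other labels was used.

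Lrrc10, a gene known from cardiomyocytes, went against the labels. Its probe gave a log2 ratio of Cy5 over Cy3 of 3.99, 4.78 and 4.45 on replicates 1, 2 and 3 (mean 4.41 ± 0.40, SD, n = 3; limma adjusted p = 0.000387), so the deleted gene was far brighter in the channel labelled Lrrc10-/- on every array. Directions below are those of the channel labelled Lrrc10-/- over the channel labelled wild type. The study describes transcripts of the actin cytoskeleton as raised in Lrrc10-/- hearts at this stage. Besides the arrays, it reports higher Actn2, Actc1, Vcl, Ilk, Itgb1 and Parva by qRT-PCR and more talin protein by Western blotting. In the direction used here, 12 of 14 readable probes of Actn2, Actg1, Vcl, Tln1, Ilk, Itgb1 and Parva had a mean below 0, 9 were below 0 on all 3 arrays and limma called 0, so that the signs opposed the study's for most of these probes. The genes are those that the study names, taken after their values were seen, and the probe of Actc1 was left out because it was saturated. Of all 28328 tested probes 13428 had a mean below 0, and of all readable probes 16.6% were below 0 on all 3 arrays. Every sign would turn if the channels had been exchanged. In RNA from whole hearts, fewer cells that make a transcript and less of it in each cell cannot be told apart.

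Collagen chains fold into a triple helix in which glycine recurs at regular steps as the smallest residue. Prolyl hydroxylases (P4ha1 and P4ha2 with their partner P4hb, and the prolyl 3-hydroxylases Lepre1 and Leprel1 with Crtap) and lysyl hydroxylases (Plod1, Plod2 and Plod3) modify the chains in the endoplasmic reticulum, where Fkbp10 and Serpinh1 act as chaperones. After secretion Bmp1, helped by Pcolce, removes the carboxy-terminal propeptide of fibrillar procollagens, and the lysyl oxidases Lox, Loxl1 and Loxl2 start the cross-links. In the heart fibrillar types I and III are made chiefly by fibroblasts and form the interstitial fibres, while type IV lies in the basement membranes around muscle cells and vessels.

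A few probe sequences show what the results below were read from. They are the 60-base probes as the array files give them, 5′ to 3′ on the transcript's strand, with the position of the probe in the mouse build mm9. The files do not say which part of a transcript a probe lies in, and the probes shown are those that can be read as coding sequence. The first is the probe of Col9a3, the only member past the test. The next lines show the upstream and a downstream probe of Col1a1, which disagreed, with the codons for cysteine in capitals.
Col9a3, chr2:180350553-180351135, plus strand: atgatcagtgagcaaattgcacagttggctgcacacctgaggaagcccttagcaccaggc
Col1a1 upstream, chr11:94799277-94799336, plus strand: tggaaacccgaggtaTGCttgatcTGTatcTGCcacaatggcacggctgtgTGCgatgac
Col1a1 downstream, chr11:94812052-94812111, plus strand: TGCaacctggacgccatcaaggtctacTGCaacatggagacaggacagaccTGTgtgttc
The upstream probe holds 4 cysteine codons and lies in the part for the amino-terminal propeptide. The downstream probe holds 3 and lies in the part for the carboxy-terminal propeptide, the stretch that Bmp1 removes. The Col9a3 probe spans 583 bases of the genome and so crosses an intron.

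Further lines show a probe of Loxl1 with its cysteine codons in capitals, and probes of Col5a1 and Col11a2 inside the triple helix with the glycine codons in capitals.
Loxl1, chr9:58138570-58138629, minus strand: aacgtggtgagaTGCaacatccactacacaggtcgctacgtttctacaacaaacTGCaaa
Col5a1, chr2:27842243-27844666, plus strand: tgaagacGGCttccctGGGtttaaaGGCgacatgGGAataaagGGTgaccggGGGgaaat
Col11a2, chr17:34189287-34189453, plus strand: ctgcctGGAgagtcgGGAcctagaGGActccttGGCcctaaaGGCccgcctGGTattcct
In both helix probes the 6 glycine codons recur at a fixed step, the repeat of the chain that the hydroxylases act on.

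Of the 104 probes, 78 of 53 genes were well above background on all 3 arrays in at least 1 channel and entered the test, which ran over 28328 probes in all. In 71 of the 78 this held for both channels and in 7 for Cy3 alone, and none passed through Cy5 alone. Col6a3, Col6a6, Col10a1, Col19a1 and Col28a1 had no tested probe, so the main partner chain of Col6a1 and Col6a2, and the type X chain of growth-plate cartilage, are not covered. Where a gene had several tested probes, the one of highest mean intensity stands for the gene. Beyond that choice, intensities of different probes were not read as amounts of transcript.

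Only Col9a3, which encodes a chain of the fibril-associated type IX collagen known from cartilage, passed the test, and it rose in the channel labelled Lrrc10-/-. Its log2 ratio was 1.12, 0.64 and 0.93 on replicates 1, 2 and 3, a mean of 0.89 ± 0.24 (SD, n = 3) or 1.86-fold (limma adjusted p = 0.0285). The processed signals behind it were low, at 543, 132 and 383 in Cy5 against 239, 73.5 and 70.7 in Cy3, but Cy5 was the brighter channel on each array. The other type IX chains gave no such values: Col9a1 had a mean of -0.14 ± 0.10 and Col9a2 one of 0.14 ± 0.18 (SD, n = 3), and Col2a1, the cartilage collagen to which type IX binds, had -0.18 ± 0.15. Cartilage markers were near 0 as a list, with a median of 0.08 over the 4 of 6 that were tested (Acan, Sox9, Comp and Hapln1), 1 below 0 and 3 above. Their summed processed signal was 1041 to 2660 in Cy5 and 1150 to 2161 in Cy3. The call for Col9a3 was lost without replicate 1 (limma adjusted p = 0.282) and without replicate 2 (0.152). Those fits called only 2 and 1 of all probes higher.

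Over all tested probes limma called 1.39% higher and 0.00353% lower, against 1 of the 77 member probes other than Fkbp10 higher and 0 lower. At an unadjusted limma p under 0.05, 9 of the 77 (11.7%) were below 0 and 3 (3.9%) above, where 4.26% of all tested probes were below and 9.07% above. By the methods' t-test, at the same level, 7 (9.09%) were below and 1 (1.3%) above, where 3.89% and 5.4% of all tested probes were. With the scanner software's processed signals 2 (2.6%) were below and 1 (1.3%) above, where 2.1% and 4.61% of all tested probes were. A block for the software version gave 4 (5.19%) below and 4 above, where 3.44% and 7.5% were. Median centring gave 13 (16.9%) below and 3 (3.9%) above, where 6.84% and 6.8% were. Without replicate 3 limma called 3 of the 77 higher (3.9%) and 2 lower (2.6%), where 5.48% and 0.882% of all probes in that fit were called. Without replicate 1 or replicate 2 it called 0 of the 77. Those fits called only 0.00712% and 0.00353% of all probes higher and 0 lower. Because the earlier look used this same contrast, no more is read from these counts. The 9 below 0 in the main fit were the probes of Loxl1, Crtap and P4ha1 among the enzymes, Col1a1, Col1a2 and Col5a2 among the fibrillar collagens, and Col14a1, Col16a1 and Col18a1. The 3 above 0 in that fit were those of Col9a3, Bmp1 and Col6a4.

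**Figure D1:**
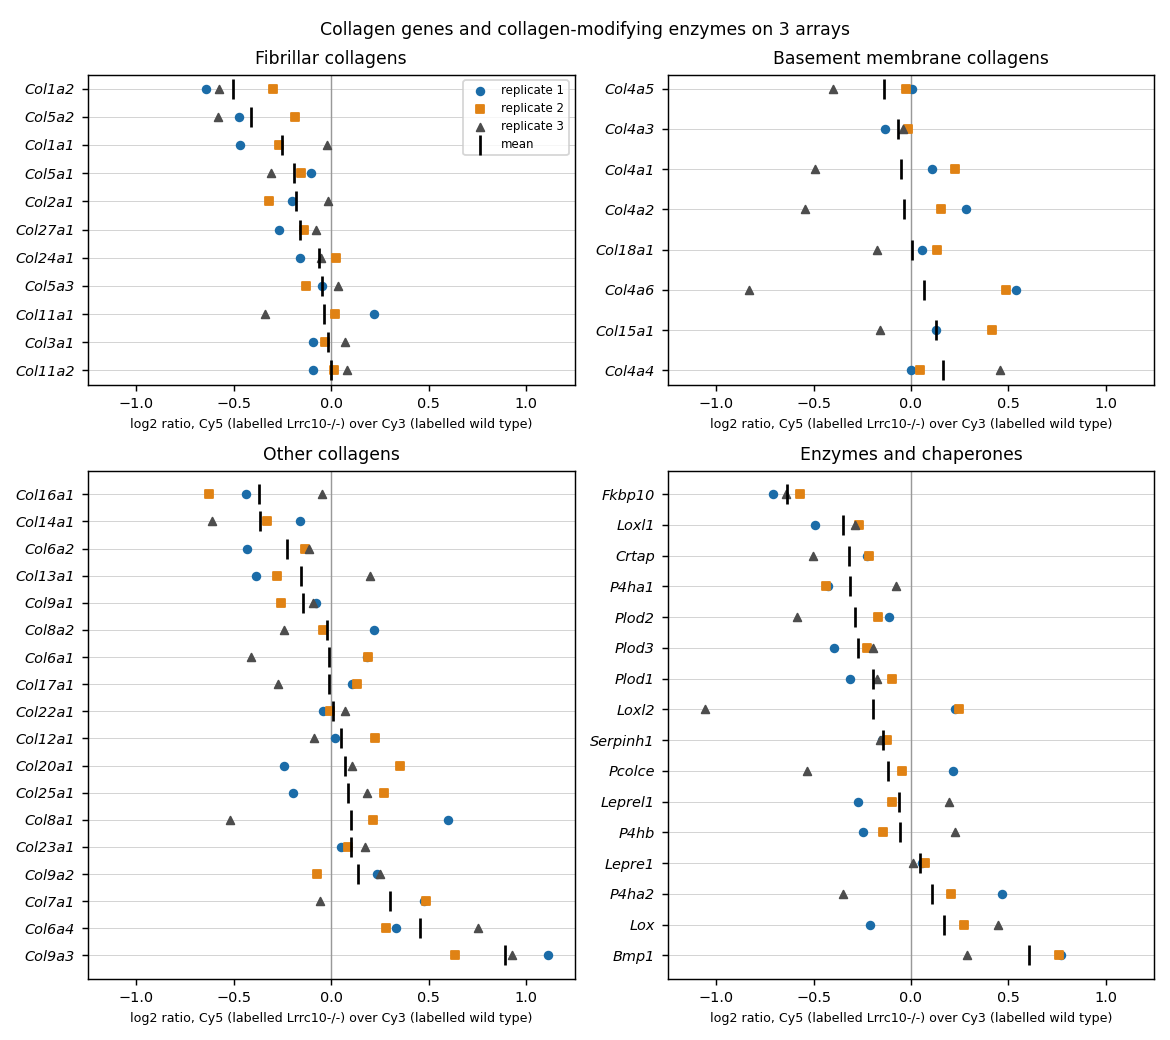
The log2 ratio of Cy5 (labelled Lrrc10-/-) over Cy3 (labelled wild type) is plotted for each of the 53 tested genes on its brightest probe, with 1 symbol for each array and a black tick for the mean. Of the 11 fibrillar genes 10 have a mean below 0, where 13428 of all 28328 tested probes do. The basement membrane genes straddle 0 with replicate 3 mostly to the left, and Col9a3 and Bmp1 stand furthest to the right.

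Fibrillar collagens lay below 0 as a class, and on the brightest probe of each gene Col1a2 and Col5a2 had the lowest means. The median over the 11 genes was -0.16, with -0.16, -0.14 and -0.05 on replicates 1, 2 and 3, where the median of all tested probes was 0.01 and at most 0.04 from 0 on any array. Means were below 0 for 10 of the 11 genes, and 6 were below 0 on all 3 arrays. Of all 28328 tested probes 13428 had a mean below 0, and 4941 were below 0 on all 3 arrays. No fibrillar gene passed the test, so these are values and not calls. The class median was -0.09 when all tested probes of a gene were averaged.

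Col1a2, the second chain of type I collagen, had log2 ratios of -0.64, -0.30 and -0.57 and a mean of -0.51 ± 0.18 (SD, n = 3; limma adjusted p = 0.149). All arrays were below 0, and on replicate 3 the Cy3 spot was saturated, so that the ratio there can only be a bound and the true one may lie further below 0. Col5a2, a chain of type V collagen that sets the diameter of type I fibrils, gave -0.47, -0.19 and -0.58 (mean -0.41 ± 0.20, SD, n = 3; limma adjusted p = 0.237). Its partner Col5a1 gave -0.10, -0.16 and -0.31 (mean -0.19 ± 0.11), again below 0 on every array, while Col5a3 had a mean of -0.05 ± 0.08.

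Col1a1, the major chain of type I collagen, was read by 3 tested probes that spread over 0.63 on the log2 scale. The brightest, at chr11:94813075-94813134, gave -0.47, -0.27 and -0.02 (mean -0.25 ± 0.22, SD, n = 3). The downstream probe printed above, 1023 bases nearer the gene's start, gave -0.80, -0.48 and -0.38 (mean -0.56 ± 0.22; limma adjusted p = 0.129). The upstream probe, a further 12775 bases away, gave 0.16, 0.06 and -0.00 (mean 0.07 ± 0.08), and its processed signals were only 54.9 to 137 in Cy5 and 56.0 to 133 in Cy3. The probes nearer the gene's end were thus below 0 on every array and the upstream one was not.

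Col3a1, which forms the thin fibres beside type I, was close to 0 on both of its probes, with means of -0.02 ± 0.08 and -0.05 ± 0.07 (SD, n = 3). The remaining fibrillar genes were Col2a1 at -0.18, Col27a1 at -0.16, Col24a1 at -0.06, Col11a1 at -0.03 and Col11a2 at 0.00 on the log2 scale. Col11a1 had the widest spread of these, from 0.22 on replicate 1 to -0.34 on replicate 3. The helix probes printed above gave means of -0.05 ± 0.11 for Col5a1 and 0.03 ± 0.15 for Col11a2, neither of them in 1 direction on all arrays.

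**Figure D2:**
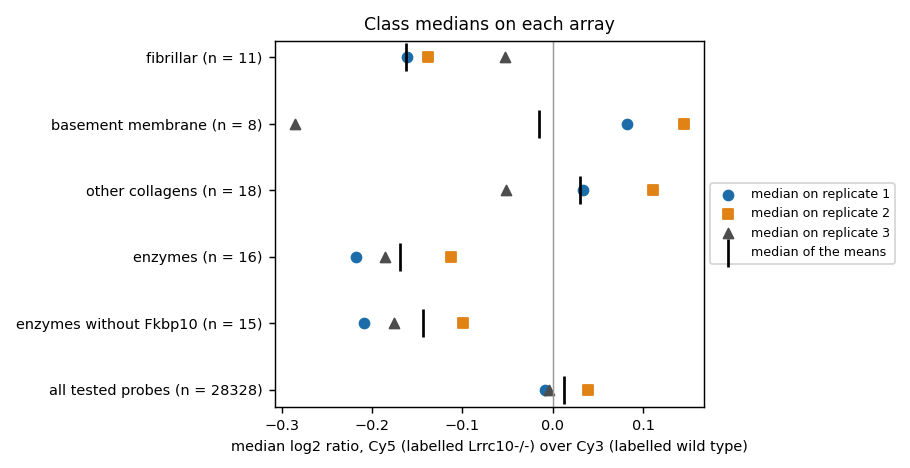
Each row gives the median log2 ratio (Cy5 over Cy3) of 1 class of genes on replicates 1, 2 and 3 (symbols) and the median of the genes' means (black tick), with the number of genes, or of probes for the last row. Fibrillar collagens and enzymes have all 3 array medians below 0, whereas basement membrane collagens run from -0.29 on replicate 3 to 0.15 on replicate 2.

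Basement membrane collagens showed no shared direction over the arrays. Their median over 8 genes was -0.01, made of 0.08, 0.15 and -0.29 on replicates 1, 2 and 3, and without replicate 3 it was 0.13. With the scanner software's processed signals it was -0.16, beside -0.15 for the fibrillar class on that scale. Of the 8 genes 4 had a mean below 0 and 4 above, and only Col4a3, at a mean of -0.06 ± 0.06 (SD, n = 3), was on 1 side of 0 on all 3 arrays. That probe was well above background in Cy5 on 1 array only.

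Col4a1 and Col4a2 encode the chains of the common type IV network and lie head to head on chromosome 8. Col4a1 gave 0.11, 0.23 and -0.50 on its brightest probe and Col4a2 gave 0.28, 0.16 and -0.55, so that both were above 0 on replicates 1 and 2 and well below on replicate 3. Means were -0.05 ± 0.39 and -0.04 ± 0.45 (SD, n = 3). The other Col4a1 probe gave 0.20, 0.34 and 0.09, above 0 on every array, and the other Col4a2 probe gave 0.11, 0.42 and -0.33.

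Col4a6, a chain found in a subset of basement membranes, had the widest spread of its class, at 0.54, 0.49 and -0.83 on the brightest of 3 tested probes, with means of 0.06, 0.32 and -0.10 over the 3 probes. Col4a5 gave 0.01, -0.03 and -0.40. Col4a4 was read by probes of opposite sign, with means of 0.17 ± 0.25 and -0.21 ± 0.03. The multiplexins Col15a1 and Col18a1, whose carboxy-terminal fragments are known to limit vessel growth, were also split: Col15a1 had means of 0.13 ± 0.29 and -0.07 ± 0.05, and Col18a1 had 0.01 ± 0.16 on its brighter probe. The other Col18a1 probe was below 0 on each array, at -0.33, -0.25 and -0.35 (mean -0.31 ± 0.05, SD, n = 3; limma adjusted p = 0.31).

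The other collagens had a median of 0.03 over 18 genes, with 0.03, 0.11 and -0.05 on replicates 1, 2 and 3. Means were below 0 for 8 and above 0 for 10. Besides Col9a3, 3 genes kept 1 direction on all arrays and had a mean of at least 0.3 in size. Col16a1 and Col14a1, both fibril-associated, were below 0, and Col6a4 was above. Col16a1 gave -0.44, -0.63 and -0.05 (mean -0.37 ± 0.30, SD, n = 3), and Col14a1 gave -0.16, -0.33 and -0.61 (mean -0.37 ± 0.23). Col6a4, one of the longer chains of the beaded-filament type VI, gave 0.33, 0.28 and 0.76 (mean 0.46 ± 0.26), and 0.01, 0.26 and 0.01 on its other probe. Both Col6a4 probes have a member's symbol in the file of replicate 3 only. The limma adjusted p-values of Col16a1, Col14a1 and Col6a4 were 0.331, 0.30 and 0.224. The common type VI chains Col6a1 and Col6a2 had means of -0.01 ± 0.35 and -0.23 ± 0.18. Col23a1, a transmembrane collagen with 3 tested probes, had means of 0.10, 0.08 and -0.06.

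Enzymes and chaperones as a class lay below 0 on all 3 arrays. The median of the 16 genes was -0.17, with -0.22, -0.11 and -0.19 on replicates 1, 2 and 3, and without Fkbp10 it was -0.14 over 15 genes, with -0.21, -0.10 and -0.18. Leaving out also Serpinh1, which was saturated in both channels on 2 arrays, the median over 14 genes was -0.16, with 10 of them below 0 on average and 6 below 0 on all 3 arrays. Of all 28328 tested probes 13428 had a mean below 0, and 4941 were below 0 on all 3 arrays. None of the 14 genes was called by limma.

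Fkbp10, the peptidyl-prolyl isomerase that assists procollagen folding in the endoplasmic reticulum, gave -0.71, -0.57 and -0.64, a mean of -0.64 ± 0.07 (SD, n = 3) or 1.56-fold less in Cy5. Its processed signals were 8667, 6081 and 12999.9 in Cy5 against 11899, 8112 and 20947 in Cy3 on replicates 1, 2 and 3. A small spread between the arrays is what a selection on p favours, so nothing is read from it. The probe, on chromosome 11, was the only one of the gene. Serpinh1, the collagen-specific chaperone also called Hsp47, was saturated in both channels on replicates 2 and 3, so the only ratio that can be read is -0.15 on replicate 1.

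Among the prolyl hydroxylases P4ha1 had probes of opposite sign. The brighter gave -0.43, -0.43 and -0.08 (mean -0.31 ± 0.20, SD, n = 3; limma adjusted p = 0.358), and the other gave 0.18, 0.12 and 0.02 (mean 0.11 ± 0.09). P4ha2 gave 0.47, 0.21 and -0.35, and P4hb, the protein disulphide isomerase that is the shared subunit, gave -0.25, -0.15 and 0.22, so that neither kept 1 direction.

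Crtap, the scaffold of the prolyl 3-hydroxylase complex, gave -0.23, -0.22 and -0.50 (mean -0.32 ± 0.16, SD, n = 3; limma adjusted p = 0.335). Its catalytic partner Lepre1 gave 0.06, 0.07 and 0.01 (mean 0.05 ± 0.03), and the related Leprel1 gave -0.27, -0.10 and 0.19. The complex members thus had unlike values, with Crtap alone below 0 on all arrays.

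All 3 lysyl hydroxylases were below 0 on every array, as were 4941 of all 28328 tested probes. Plod1 gave -0.31, -0.10 and -0.18 (mean -0.20 ± 0.11, SD, n = 3). Plod2, which hydroxylates the telopeptides, gave -0.11, -0.17 and -0.58 (mean -0.29 ± 0.26). Plod3, which also adds sugars, gave -0.39, -0.22 and -0.20 on one probe (mean -0.27 ± 0.11) and a mean of -0.23 ± 0.18 on the other. None passed the test.

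The lysyl oxidases did not move as 1 group. Loxl1, known from elastic fibres, gave -0.49, -0.27 and -0.29 (mean -0.35 ± 0.12, SD, n = 3; limma adjusted p = 0.275). Lox gave -0.21, 0.27 and 0.45. Loxl2 gave 0.23, 0.25 and -1.06 on its brighter probe, the widest spread of all enzymes, and -0.55, 0.15 and -0.25 on the other.

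Bmp1, the procollagen C-proteinase, was the only enzyme above 0 by more than 0.2. The brighter probe gave 0.77, 0.76 and 0.29 (mean 0.61 ± 0.28, SD, n = 3; limma adjusted p = 0.122). The other probe gave 0.05, 0.17 and 0.00 (mean 0.07 ± 0.09). The probes differed by 0.53 on the log2 scale. The enhancer Pcolce gave 0.22, -0.04 and -0.53.

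**Figure D3:**
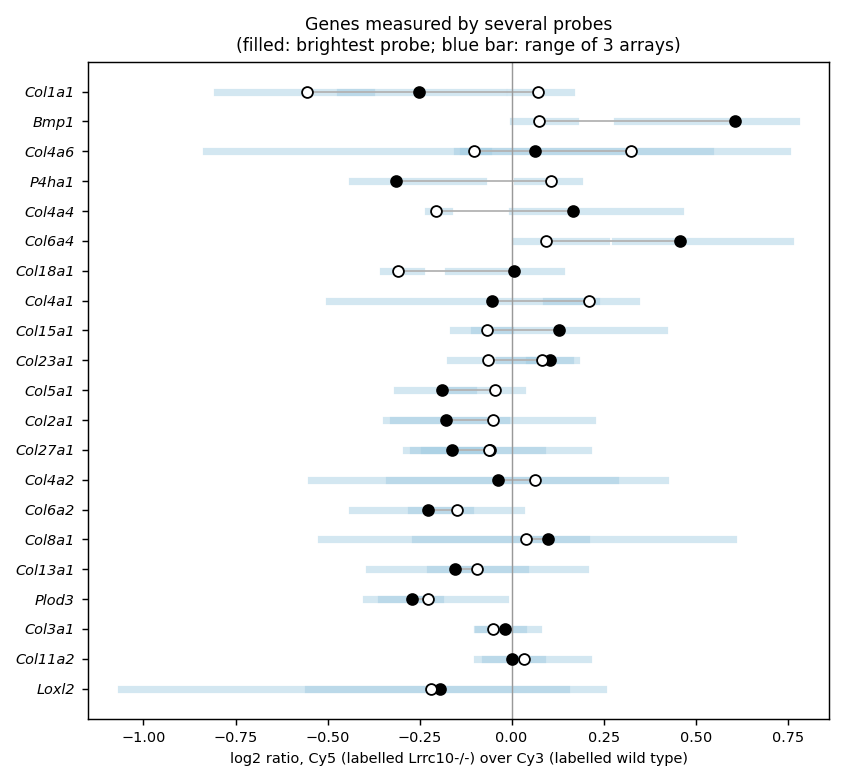
Mean log2 ratios (Cy5 over Cy3) of every tested probe are shown for the 21 genes with several tested probes, with the brightest probe filled and the range over the 3 arrays as a blue bar. Probes of Col1a1 and Bmp1 lie more than 0.5 apart, whereas those of Loxl2, Col11a2 and Col3a1 nearly coincide.

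Across the 21 genes with several tested probes the means differed by a median of 0.14, and in 9 genes they differed in sign. The genes were Col1a1, Col4a1, Col4a2, Col4a4, Col4a6, Col15a1, Col18a1, Col23a1 and P4ha1. By 0.5 or more they differed in 2, Col1a1 and Bmp1.

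Set side by side, fibrillar collagens and enzymes without Fkbp10 had like medians, which differed by 0.05, -0.04 and 0.12 (fibrillar minus enzymes) on replicates 1, 2 and 3, a mean of 0.04 ± 0.08 (SD, n = 3). The other collagens lay above the enzymes without Fkbp10 on each array, by 0.24, 0.21 and 0.12 (mean 0.19 ± 0.06). Basement membrane collagens lay above the enzymes by 0.29 and 0.25 on replicates 1 and 2 but below them by -0.11 on replicate 3. The classes share the same 3 arrays and no test was made of these differences.

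**Figure D4:**
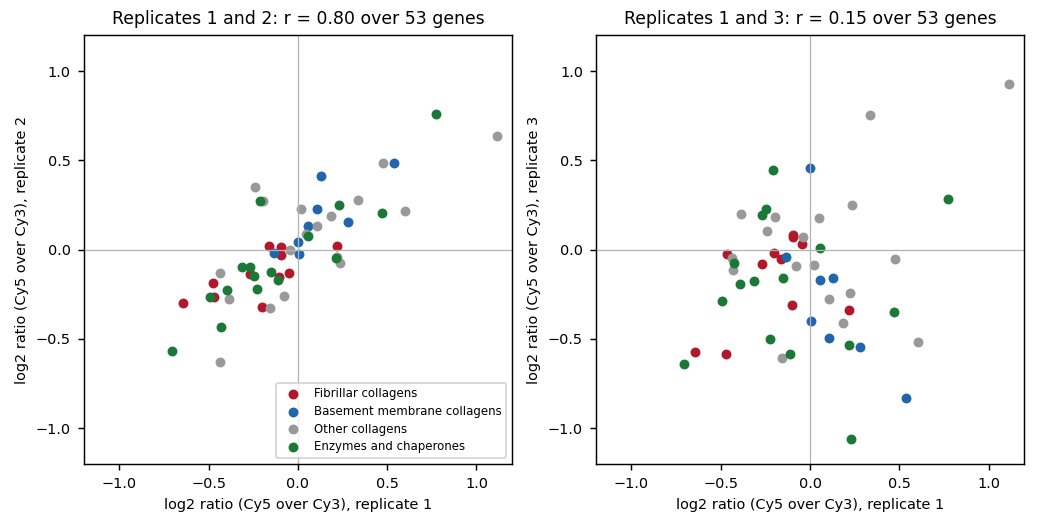
Log2 ratios (Cy5 over Cy3) of the 53 tested genes on replicate 1 are plotted against those on replicate 2 (left) and replicate 3 (right), coloured by class. The points follow the diagonal on the left and scatter on the right, where the basement membrane genes run from the upper left to the lower right.

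The arrays did not resemble each other equally in these genes. Over the 53 genes Pearson's r was 0.80 between replicates 1 and 2, 0.15 between 1 and 3 and 0.24 between 2 and 3, as a description across genes of the same arrays. Over the 28084 probes with a value on all arrays the same coefficients were 0.51, 0.22 and 0.22. The sign was the same on all 3 arrays for 24 of the 53 genes. Of all 28328 tested probes 4941 were below 0 on all 3 arrays and 5419 above. Replicates 1 and 2 had the same sign in 43 of the 53 genes and in 18504 of the 28084 probes. In 19 genes replicates 1 and 2 had 1 sign and replicate 3 the other, and of these 13 were above 0 on replicates 1 and 2. The 19 included 5 of the 8 basement membrane genes, 3 of 11 fibrillar genes, 7 of 18 other collagens and 4 of 16 enzymes. Their pattern was not counted over all probes, so it is not read as particular to these genes. The file headers give another scanner model and software version for replicate 1 than for the other arrays. Replicate 3 had the fewest gene spots well above background, 63.9% in Cy5 and 69.3% in Cy3. The same shares were 88.9% and 87.2% on replicate 1 and 82.4% and 93.2% on replicate 2. The part of either in the array values was not tested.

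A ratio can be read best where a probe was well above background in both channels on all arrays and never saturated in both, which held for 69 member probes, Fkbp10 not counted, and 24933 probes in all. Of the 69, 21 (30.4%) were below 0 on all 3 arrays, where 16.6% of all such probes were, and 9 (13%) were above 0 on all 3, where 20.7% were. By class the probes below 0 on all arrays were 7 of 16 fibrillar, 3 of 13 basement membrane, 4 of 22 other collagen and 7 of 18 enzyme probes. Those above 0 on all arrays were 0 of 16 fibrillar, 1 of 13 basement membrane, 4 of 22 other collagen (18.2%) and 4 of 18 enzyme probes (22.2%). This selection of probes was added after the data were seen, the contrast is the one the earlier look used, and no test was made of these shares.

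The wider collagen pathway gave 1 higher call and 0 lower among 44 tested genes, where 1.39% of all tested probes were called higher and 0.00353% lower. Loxl4, a lysyl oxidase outside the 16 enzymes, rose, with log2 ratios of 0.85, 0.51 and 1.08 (mean 0.81 ± 0.29, SD, n = 3; limma adjusted p = 0.0465). The processed signals of Loxl4 were low, at 457, 143 and 376 in Cy5 against 234, 93.8 and 32.6 in Cy3. The call was lost without replicate 1 (limma adjusted p = 0.442) and without replicate 2 (0.157), in fits that called only 2 and 1 of all probes higher. At an unadjusted limma p under 0.05, 3 of the 44 (6.82%, against 9.07% of all tested probes) were above 0 (Loxl4, the procollagen N-proteinase Adamts14 and the collagen-degrading cathepsin Ctsk) and 2 (4.55%, against 4.26%) below (the small proteoglycan Dcn and the gelatinase Mmp2). Dcn gave -0.54, -0.22 and -0.55, and Mmp2 gave -0.45, -0.33 and -0.41.

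By role, the 23 tested genes of biosynthesis and secretion had a median of -0.04, with 14 below 0 and 9 above. Among them P3h3, a paralogue of Lepre1, gave -0.30, -0.17 and -0.35. The cyclophilin Ppib, the partner of Crtap and Lepre1, gave -0.21, -0.33 and 0.34. The 8 fibril organisers had a median of -0.01, and the 13 receptors and turnover genes one of 0.10. Ddr2, a collagen receptor tyrosine kinase of fibroblasts, gave 0.01, 0.06 and -0.65 and thus stood apart on replicate 3 alone.

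Of the 8 fibroblast and mesenchyme markers Vim was saturated in both channels on 2 arrays, and the other 7 had a median of 0.13, with 0.13, 0.11 and 0.07 on replicates 1, 2 and 3, and 2 below 0 and 5 above. The summed processed signal of the 8 was 72839 to 130959 in Cy5 and 79574 to 155085 in Cy3. Pdgfra, a defining marker of cardiac fibroblasts, gave 0.10, 0.11 and -0.67, while Tcf21 gave 0.13, 0.11 and 1.06. The 5 epicardial markers had medians of -0.18, -0.10 and 0.42 on replicates 1 to 3. All 13 markers of these lists were tested, and their part in the collagen values was not tested.

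Of the 4 markers of smooth muscle, whose cells also make fibrillar collagen, Acta2 was saturated in both channels on 2 arrays, and the other 3 were below 0 with a median of -0.12, made of -0.13, -0.15 and -0.13 on the arrays. Tagln gave -0.59, -0.43 and -0.44, and its part in the fibrillar values was not tested. The 8 endothelial and endocardial markers had a median of -0.02, with -0.04, 0.14 and -0.15 on the arrays, and their part in the basement membrane values was not tested. Of the 10 cardiomyocyte markers 5 (Myh7, Tnnt2, Tnni3, Myl2 and Myl7) were saturated in both channels on 2 or 3 arrays, and the other 5 had a median of -0.13, with -0.29, 0.15 and -0.04 on the arrays. Of the 5 blood cell markers Hba-a1 was saturated, and the other 4 were 2 below 0 and 2 above, with a median of -0.10.

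Liver transcripts marked 1 array as unlike the others. Afp, a major secreted protein of the fetal liver, gave 0.82, -5.15 and 0.77, and the summed processed signal of 4 tested liver genes was 25151, 2489 and 3526 in Cy5 against 14572, 28849 and 2247 in Cy3 on replicates 1, 2 and 3. Replicate 2 was the array whose liver signal was far lower in Cy5 than in Cy3. Without replicate 2 the medians were -0.11 for fibrillar collagens, -0.11 for basement membrane collagens, -0.02 for other collagens and -0.20 for the enzymes.

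The members' probes held a median of 23.3% cytosine where all tested probes held 20%. With log ratios corrected for the base content of the probe, the medians were -0.15 for fibrillar collagens, 0.00 for basement membrane collagens, 0.06 for other collagens and -0.16 for enzymes, and Col9a3 had a mean of 0.90 (limma adjusted p = 0.0295).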

How the data were processed

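Deposited scanner files hold spot intensities, made by the authors with Agilent Feature Extraction (9.5 per the labels, 9.1.3.1 in the header of replicate 1 and 10.7.3.1 in those of replicates 2 and 3). The deposited series table holds log10 ratios equal to those of the scanner files. Mean signals were corrected by normexp (offset 50) against median local background and normalized by loess within arrays, control spots at weight 0 and non-uniform spots left out, and spots of a probe were averaged. Probes well above background on all 3 arrays in Cy5, or on all 3 in Cy3, were tested against 0 with limma 3.58.1 (R 4.3.3) and Benjamini-Hochberg adjustment over 28328 probes (threshold 0.05). The number of arrays limits the precision. The steps were tested on simulated data. The members and lists were chosen with earlier results of these data known. Named are Lrrc10, the enzymes, fibrillar and basement membrane collagens, and other collagens of 1 sign with a mean of at least 0.3 in size. Called probes, and probes of a gene that differ in sign or by 0.5, are named too. Other genes were chosen after their values were seen. All 104 probes have a member's symbol in the file of replicate 3, and 97 in all 3 files. Symbols of other lists were updated through RefSeq (GRCm38.p6). Alternatives covered background, normalization, filters, test, batch, base content and replicates. One probe sequence is not reported here.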

Additional observations from a re-analysis of the deposited data

How the results depend on the processing

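Of 150 comparisons of a main result with an alternative, 117 kept the result within its limits. Some of these could not differ, so the count overstates how stable the results are. The class medians cannot change under the methods' t-test, the intensity trend or no filter, and the series table repeats the processed signals. The count of members called higher was 0, in place of 1, without background correction, with the software's processed signals and with the series table. It was also 0 with arrays scaled to 1 spread and without the filter on dim probes. The methods' t-test and a block for the scanner software gave 0 as well. Those fits called at most 0.00353% of all probes higher, except the fit without the filter (0.352%), against 1.39% in the main fit. The count ranged from 0 to 3 without 1 replicate. The fits without replicate 1 and without replicate 2 called 0.00712% and 0.00353% of all probes higher. The 3 called higher without replicate 3 were Bmp1, Col4a6 and Col9a3, in a fit that called 5.48% of all probes higher and 0.882% lower. The count called lower is given without Fkbp10, which was selected on this contrast, although the 150 comparisons include it. That count was 0 in every setting that keeps all replicates. It ranged from 0 to 2 without 1 replicate, the 2 being Col1a1 and Col16a1 in the fit without replicate 3. The wider pathway count was 0 in place of 1 under the settings that gave 0 members and under median centring, and 0 to 2 without 1 replicate. At an unadjusted p of 0.05 the methods' t-test had 1 member probe above 0 and, without Fkbp10, 7 below, against 5.4% and 3.89% of all probes, and 0 after Benjamini-Hochberg. The Lrrc10 log2 ratio stayed above 0 but lost its call with the processed signals and the series table (5.21), with scaled arrays (4.60) and with the methods' t-test (4.41; the adjusted p-values ran from 0.27 to 0.504). Class medians moved by more than the spread between arrays in these cases: other collagens to -0.0704 with the processed signals and the series table, enzymes to -0.25 with median centring, and fibrillar collagens to -0.0946 with the mean of all probes of a gene. The basement membrane median of -0.0146 became -0.165 with the processed signals, within that spread. The causes were not tested. Keeping only probes named as members in all 3 files, or leaving out Serpinh1 and Col1a2, both chosen after seeing the data, moved no class median by that much. Of 54 named probes, Loxl4 among them, 36 kept their sign under the 14 alternatives that keep all replicates. In the alternatives that change only the filter, the t-test or the intensity trend the ratios are those of the main fit, so no sign could turn. Each array holds both pools, so its ratio already pairs them, and the test of the ratios against 0 is the paired analysis. With 3 arrays of 1 dye orientation the depth of evidence is small.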
